A study of Mus musculus with 90 samples.

Results

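The interleukin-1 family and inflammasome genes examined here were 7 genes taken by symbol: the ligands Il1a, Il1b and Il18, the antagonist Il1rn, the proteases Casp1 and Casp4, and the sensor Nlrp3. Probes annotated to 6 of these 7 genes were present among 10698 genes with a probe, and no probe carried the symbol Nlrp3. They had 13 probes, of which 10 had enough values to be fitted, and these covered 5 genes (Il1a, Il1b, Il18, Casp1 and Casp4) among the 11600 features fitted. Il1rn is described from its remaining values.

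RNA of RAW 264.7 cells, an established mouse macrophage line, was hybridized against RNA of time-matched cells kept in medium on dual-colour oligonucleotide arrays. Cells received LPS at 100 ng/ml with 2-methyl-thio-ATP (2MA, an ATP analogue) at 500 µM, LPS at 100 ng/ml with interferon gamma (IFG) at 5 nM, LPS alone at 100 ng/ml, IFG alone at 5 nM or 2MA alone at 500 µM, for 1, 2 or 4 h. The labels list lipid binding protein at 100 pM beside LPS alone and do not list it for the combinations, so its part in any difference between a combination and LPS cannot be told apart from that of the second agent. Each of the 15 conditions had 3 numbered sets with both dye orientations, 90 arrays in all. Nothing in the labels says that the sets were separate cultures or that treatments had separate control RNA, so all p-values refer to the spread of these samples alone, which may be technical.

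Interleukin-1 alpha and beta and interleukin-18 are made as precursors. In macrophages, inflammatory stimuli such as LPS first induce the genes (priming), and an inflammasome built on a sensor such as NLRP3 then activates caspase-1, which cleaves the interleukin-1 beta and interleukin-18 precursors. Extracellular ATP is a classical trigger of that second step through the P2X7 channel, mouse caspase-11 (the Casp4 product) responds to LPS inside the cell, and the interleukin-1 receptor antagonist (Il1rn) competes for the receptor.

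All values are log2 ratios of treated over control RNA, given for sets 1, 2 and 3 in that order, with the mean ± SD over the replicates of a condition. A replicate is 1 set, averaged over its 2 arrays of opposite dye. A ratio was called where limma's adjusted p was under 0.05 and the ratio differed from 0 by at least 1, that is 2-fold. Which RNA was the numerator is not stated, so higher and lower are given as likely directions: after turning the arrays of 1 dye orientation, 6 of 6 measured genes known to be raised by LPS or IFG lay above 0 at 4 h of LPS, and 6 of 6 at 4 h of IFG. Ratios hold no level, so neither the abundance of one gene against another nor the identity of the cells could be checked; 8 of 10 macrophage markers were among the features fitted. Of these 8, 5 were called in at least 1 condition, for example 2 higher and 2 lower with LPS+2MA at 4 h and 4 higher and 1 lower with LPS+IFG at 4 h. Of markers of other cell types, 5 of 5 neutrophil, 5 of 5 fibroblast, 3 of 4 B cell and 3 of 4 T cell genes were fitted as well. Of these, 0 were called in any of the 15 conditions. Among all features 9.78% were called in at least 1 condition, and these counts do not identify the cells. A change in RNA per cell and a change in the share of responding cells cannot be told apart in such bulk samples.

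The promoters of Il1a and Il1b, which were called first, and of Casp4, whose ratio rose with IFG and later with LPS, are shown. Each is given as the 250 bases before the RefSeq start (GRCm38.p6, reading 5′ to 3′ on the gene's strand). Il1a lies at chr2:129299609-129310186 and its window at chr2:129309973-129310222 on the minus strand. Il1b lies at chr2:129364569-129371164, close by on the same chromosome, with its window at chr2:129371140-129371389 on the minus strand. Casp4 lies at chr9:5308849-5336791 with its window at chr9:5308599-5308848 on the plus strand, next to Casp1 at chr9:5298517-5307281. The gene records of Il1a and Il1b reach upstream into these windows, so other transcript starts may lie there. Capitals mark matches to the motifs searched on both strands.
Il1a: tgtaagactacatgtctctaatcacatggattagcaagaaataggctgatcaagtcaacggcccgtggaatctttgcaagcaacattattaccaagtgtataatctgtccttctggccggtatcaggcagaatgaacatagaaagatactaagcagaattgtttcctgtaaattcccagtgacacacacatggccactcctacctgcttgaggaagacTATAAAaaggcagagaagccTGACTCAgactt
Il1b: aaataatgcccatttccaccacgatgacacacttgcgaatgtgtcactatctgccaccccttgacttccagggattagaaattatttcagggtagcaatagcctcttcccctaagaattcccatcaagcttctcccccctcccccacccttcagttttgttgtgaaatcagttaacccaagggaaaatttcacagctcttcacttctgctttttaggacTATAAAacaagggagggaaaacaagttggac
Casp4: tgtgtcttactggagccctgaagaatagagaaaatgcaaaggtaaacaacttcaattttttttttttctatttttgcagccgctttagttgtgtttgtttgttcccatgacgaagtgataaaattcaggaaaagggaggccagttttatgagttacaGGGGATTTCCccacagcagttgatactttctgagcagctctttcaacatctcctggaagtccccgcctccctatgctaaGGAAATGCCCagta
In Il1a and Il1b the capitals mark a TATA box (TATAAA), 32 to 27 and 31 to 26 bases before the start, a motif held by 12.37% of all 32851 promoter windows of this length. The second match in Il1a is to the AP-1 motif TGANTCA, 12 to 6 bases before the start (6.75% of windows). Both matches in Casp4 are to the NF-kB type motif (GGG and TTTCC with 2 bases between), 93 to 84 and, on the opposite strand, 14 to 5 bases before the start (1.41% of windows). The interferon motifs TTCNNNGAA (GAS, 7.02%) and GAAA repeated after 2 bases (ISRE core, 2.98%) and the motif TGACGTCA (CRE, 1.55%) had no match in the 3 windows shown. The windows of Il18 and Casp1, whose ratios also rose with IFG and later with LPS, held none of the 6 motifs, with 1 exception. This was a TATAAA match on the opposite strand in Il18, 175 to 170 bases before its start. Of the 3 Il1rn windows, 1 held an AP-1 match (141 to 135 bases before its start) and 1 an NF-kB type match (51 to 42 bases before). A match describes letters only.

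Against control RNA, the calls of the 5 fitted genes fell into an early pair with LPS and a later trio with both LPS and IFG. For Casp4 this order depends on the 2-fold minimum. Under 2-fold it passed the adjusted p at 1 h with IFG, LPS+IFG and LPS+2MA. With LPS+2MA, 2 of 5 were called at 1 h, 2 at 2 h and 5 at 4 h, where 1.22%, 2.78% and 6.59% of all features were. With LPS+IFG the counts were 2, 5 and 5 (1.84%, 3.74% and 6.71% of features). LPS alone gave 2, 2 and 5 (1.08%, 2.21% and 4.81%), IFG alone 0, 3 and 3 (0.379%, 1.08% and 1.86%), and 2MA alone 0, 1 and 0 (0.328%, 0.328% and 0.147%). Every call was higher in treated cells: 37 of the 75 gene-by-condition values were called, and none was called lower. The median ratio of the 5 genes at 4 h was 3.16 with LPS+2MA, 2.35 with LPS+IFG, 2.65 with LPS, 1.26 with IFG and 0.26 with 2MA, while the median over all features lay between -0.01 and 0.00 in these 5 conditions.

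**Figure D1:**
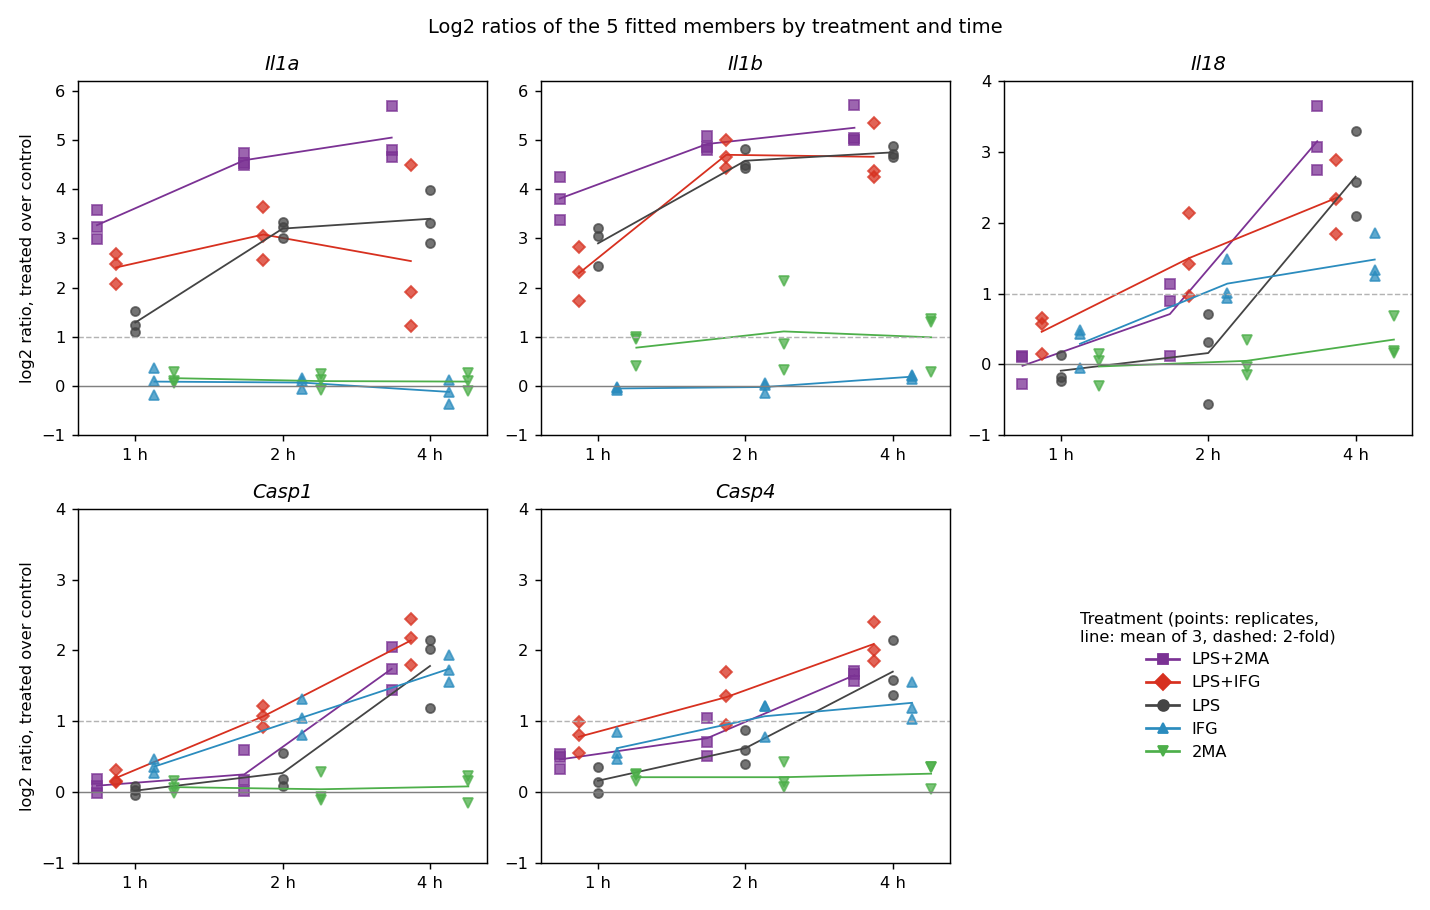
Log2 ratio of treated over control RNA (vertical axis) of Il1a, Il1b, Il18, Casp1 and Casp4 at 1, 2 and 4 h, with a point for each replicate and a line through the means of 3 replicates for each of 5 treatments. The vertical axis differs between the interleukin-1 panels and the others; the means of Il1a and Il1b stand above 1 with LPS, LPS+IFG and LPS+2MA from 1 h. Those of Il18, Casp1 and Casp4 pass 1 at 2 h with LPS+IFG and IFG, and at 4 h with LPS and LPS+2MA.

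Il1a, encoding interleukin-1 alpha, a ligand that acts without cleavage by caspase-1, was called in all 9 conditions with LPS and in none of the 6 without it. In LPS+2MA cells its ratios were 3.57, 3.24 and 2.99 at 1 h, 4.74, 4.49 and 4.53 at 2 h, and 4.79, 4.66 and 5.70 at 4 h. In LPS+IFG cells they were 2.07, 2.49 and 2.68 at 1 h, 3.64, 2.56 and 3.04 at 2 h, and 1.92, 1.22 and 4.49 at 4 h. LPS alone gave 1.10, 1.52 and 1.24 at 1 h, 3.34, 3.24 and 3.01 at 2 h, and 2.90, 3.32 and 3.99 at 4 h. The LPS+2MA replicates lay above every replicate of LPS alone at each time, whereas the LPS+IFG replicates lay above them at 1 h and overlapped them at 2 and 4 h. Over all features, the LPS+2MA replicates lay above those of LPS in 3.5%, 2.9% and 5.4% at 1, 2 and 4 h. The LPS+IFG replicates lay above those of LPS in 4.6% at 1 h and 6.1% at 2 h.

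Mean Il1a ratios were 3.27 ± 0.29, 4.59 ± 0.13 and 5.05 ± 0.57 with LPS+2MA at 1, 2 and 4 h (SD, n = 3), the last being 33.1-fold (adjusted p = 5.18e-17). They were 2.41 ± 0.31, 3.08 ± 0.54 and 2.54 ± 1.72 in LPS+IFG cells, and 1.29 ± 0.21, 3.20 ± 0.17 and 3.40 ± 0.55 in LPS cells. The order of the means at 1 h was LPS+2MA, LPS+IFG, LPS. Single replicates with IFG or 2MA alone stayed between -0.36 and 0.36. The LPS call at 1 h (adjusted p = 0.00286) was lost without set 2 of that condition, at 1.17 and an adjusted p of 0.0651.

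The SD of 1.72 at 4 h of LPS+IFG came from set 3, which stood apart from sets 1 and 2. In that set Il1a had ratios of 4.85 with treated RNA in Cy5 and 4.13 with it in Cy3, and of 4.45 and 4.52 on its 2 probes, so both arrays and both probes carried the high value. Set 3 exceeded the mean of sets 1 and 2 by 2.92, and of 11307 features with all 3 values none but Il1a departed as far in this condition (SD over features 0.29). Set 3 was also the highest Il1a value at 4 h of LPS+2MA and of LPS alone. Below, calls of Il1a and Il18 that change without this replicate are given both ways. The replicate was picked for its Il1a value in these same data. Its omission also lowers the spread of the gene, so Il1a p-values without it only describe sensitivity and are no support for a difference.

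Il1b, encoding the interleukin-1 beta precursor that caspase-1 cleaves, had the highest mean ratio of the 5 genes in each condition with LPS apart from 1 h of LPS+IFG. Its ratios in LPS+2MA cells were 4.25, 3.37 and 3.81 at 1 h, 5.09, 4.86 and 4.80 at 2 h, and 5.04, 5.00 and 5.71 at 4 h. LPS+IFG cells had 2.31, 2.82 and 1.73 at 1 h, 5.00, 4.43 and 4.66 at 2 h, and 4.38, 4.25 and 5.34 at 4 h. In cells with LPS alone they were 3.04, 3.22 and 2.45, then 4.81, 4.50 and 4.43, then 4.72, 4.88 and 4.66. Replicates of LPS+2MA lay above those of LPS at 1 and 4 h (3.5% and 5.4% of features did) and overlapped them at 2 h. Those of LPS+IFG overlapped those of LPS at each time.

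The mean Il1b ratio with LPS+2MA was 3.81 ± 0.44, 4.92 ± 0.15 and 5.25 ± 0.40 at 1, 2 and 4 h, the last 38.0-fold (adjusted p = 2.74e-20). With LPS+IFG it was 2.29 ± 0.54, 4.70 ± 0.29 and 4.66 ± 0.60, and with LPS 2.90 ± 0.40, 4.58 ± 0.20 and 4.75 ± 0.11. Its 3 probes rose together but to different sizes, with means of 5.62, 5.26 and 4.45 at 4 h of LPS+2MA. The lowest of these probes had no value in set 3, and without that probe in any array the mean was 5.44.

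With 2MA alone Il1b was the one fitted gene with a call. Its ratios were 0.99, 0.95 and 0.40 at 1 h, 2.14, 0.86 and 0.32 at 2 h, and 1.36, 0.29 and 1.30 at 4 h. All 9 lay above 0, with a wide spread in which set 1 was highest at each time. The mean at 2 h was 1.11 ± 0.94 (adjusted p = 0.00512), against 0.78 ± 0.33 at 1 h (adjusted p = 0.0838) and 0.99 ± 0.60 at 4 h (adjusted p = 0.0131, under 2-fold). Without set 1 the 2 h mean was 0.59 (adjusted p = 1), and with only the 3 replicates of that condition in the fit its adjusted p was 0.39. With IFG alone single Il1b replicates stayed between -0.14 and 0.22.

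Il1rn, encoding the receptor antagonist, could not be fitted beside the others because its probe lost its values on LPS arrays. One of its 2 probes had a value on 36 of 36 arrays with IFG or 2MA alone, on 2 of 36 arrays of the combinations and on 8 of 18 arrays with LPS alone (5 at 1 h, 3 at 2 h and none at 4 h). The other probe had a value on 3 of 90 arrays. Of 11494 probes with a value on every array without LPS, 9835 also had one on every LPS array, and only 3 had one on at most 23 of the 54 LPS arrays: those of Mt2 (23), Acod1 (15) and Il1rn (10). What removed these values was not tested.

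Where Il1rn had values, it was above 0 in every replicate. With LPS at 1 h the ratios were 1.59 and 1.53 in sets 1 and 2 (mean 1.56 ± 0.04, n = 2), and at 2 h the one replicate with both arrays stood at 2.05. In IFG cells they were 0.41, 0.49 and 0.47 at 1 h, 0.33, 0.47 and 0.66 at 2 h, and 0.91, 1.46 and 0.83 at 4 h. In 2MA cells they were 1.48, 0.82 and 0.59 at 1 h, 1.86, 0.92 and 0.71 at 2 h, and 2.03, 0.85 and 0.72 at 4 h. Set 1 was highest with 2MA at each time, as it was for Il1b at each of those times.

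A test without the requirement of values in every condition, added after the data were seen, called Il1rn with LPS at 1 h (adjusted p = 7e-04, 1.09% of features called). It also called it with IFG at 4 h (1.07 ± 0.34, adjusted p = 0.00187, 1.89% of features) and with 2MA at 2 h (1.16 ± 0.61, adjusted p = 0.00716, 0.351%) and 4 h (1.20 ± 0.72, adjusted p = 0.00496, 0.206%). Each of these 3 means with IFG or 2MA fell under 2-fold without 1 set: that with IFG at 4 h was 0.87 without set 2, and those with 2MA were 0.82 at 2 h and 0.79 at 4 h without set 1. At 1 h of 2MA the mean of 0.96 ± 0.47 had an adjusted p of 0.034 but was under 2-fold (0.328% of features called). With IFG the means of 0.46 ± 0.04 at 1 h (adjusted p = 0.986, 0.402% of features called) and 0.48 ± 0.17 at 2 h (adjusted p = 0.483, 1.14%) did not pass.

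**Figure D2:**
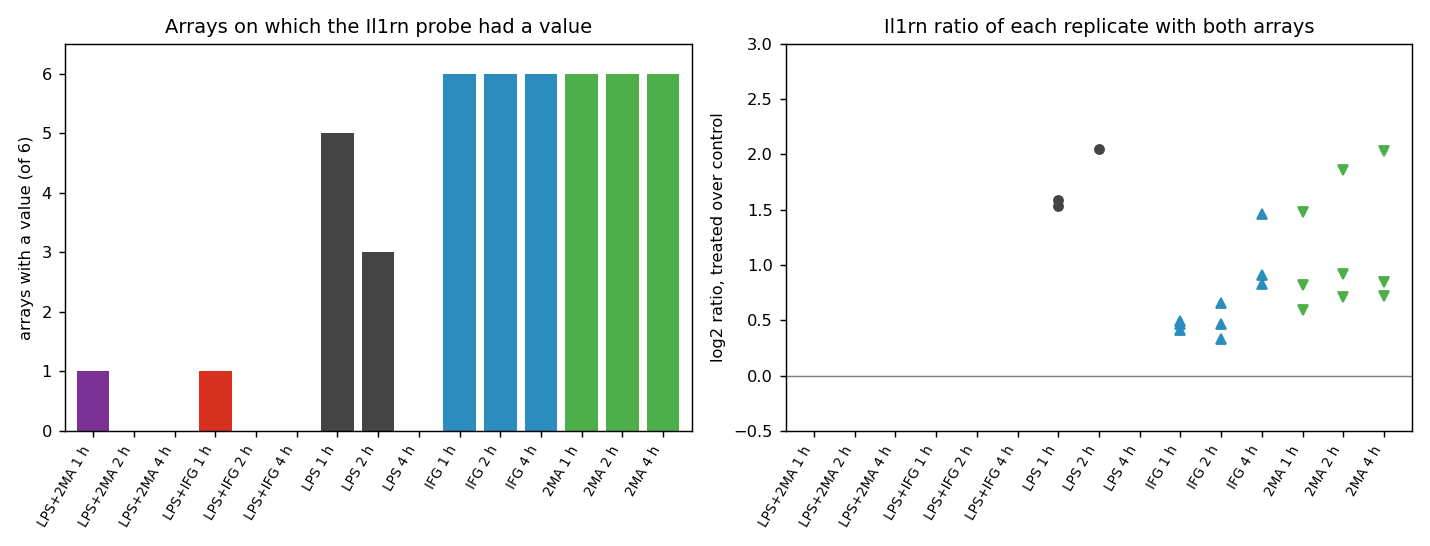
Left, the number of arrays of 6 on which the Il1rn probe had a value in each condition; right, the log2 ratio of treated over control RNA in each replicate with values on both arrays. All 36 arrays with IFG or 2MA alone had a value, against 2 of 36 with a combination and 8 of 18 with LPS alone.

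Il18, encoding the interleukin-18 precursor (chr9:50554700-50581841), was called with IFG from 2 h and with LPS at 4 h. In LPS+2MA cells its ratios were 0.12, 0.11 and -0.28 at 1 h, 0.89, 1.14 and 0.12 at 2 h, and 3.07, 3.65 and 2.75 at 4 h. In LPS+IFG cells they were 0.57, 0.66 and 0.14 at 1 h, 1.41, 2.13 and 0.96 at 2 h, and 2.33, 2.88 and 1.84 at 4 h. LPS alone gave 0.13, -0.18 and -0.23 at 1 h, 0.32, 0.71 and -0.56 at 2 h, and 2.57, 3.29 and 2.09 at 4 h. At 1 h and 2 h the replicates of LPS+IFG lay above those of LPS (4.6% and 6.1% of features did), and at 4 h the groups overlapped.

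IFG alone gave Il18 ratios of 0.43, 0.48 and -0.05 at 1 h, 1.01, 1.49 and 0.93 at 2 h, and 1.25, 1.85 and 1.33 at 4 h. The mean at 4 h was 3.15 ± 0.46 with LPS+2MA (8.9-fold, adjusted p = 1.87e-14), 2.35 ± 0.52 with LPS+IFG, 2.65 ± 0.61 with LPS and 1.48 ± 0.33 with IFG (adjusted p = 4.23e-06), and the replicates of the first 3 overlapped. With 2MA alone no mean exceeded 0.35. The IFG call at 2 h, 1.14 ± 0.30, missed both criteria without set 2, at 0.97 and an adjusted p of 0.0503. The 2 Il18 probes differed by up to 0.63. That IFG mean at 2 h was 1.29 on 1 probe and 0.99 on the other (adjusted p = 0.0251). With LPS+2MA at 2 h the mean was 0.71 (adjusted p = 0.0202, under 2-fold). It was 1.03 on the first probe (adjusted p = 0.000139) and 0.40 on the other.

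Casp1, encoding the protease of the canonical inflammasome, was measured by 1 probe, since its other probe had no value on any array. Its ratios in LPS+2MA cells were 0.17, 0.59 and 0.01 at 2 h and 1.74, 2.05 and 1.44 at 4 h. In LPS+IFG cells they were 1.22, 1.08 and 0.92 at 2 h and 2.45, 2.17 and 1.80 at 4 h. LPS alone gave 0.09, 0.55 and 0.18 at 2 h and 2.02, 2.14 and 1.19 at 4 h. IFG alone gave 1.05, 1.31 and 0.81 at 2 h and 1.72, 1.93 and 1.56 at 4 h. The LPS+IFG replicates lay above those of LPS at 2 h (6.1% of features did), and all 4 treatments overlapped at 4 h.

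Mean Casp1 ratios at 4 h were 1.74 ± 0.31 with LPS+2MA, 2.14 ± 0.32 with LPS+IFG (4.4-fold, adjusted p = 6.57e-16), 1.78 ± 0.52 with LPS and 1.74 ± 0.19 with IFG (adjusted p = 1.09e-12). At 1 h no treatment was called, with means from 0.02 to 0.36. The 2 h means of 1.07 ± 0.15 with LPS+IFG and 1.05 ± 0.25 with IFG were called but lay close to the 2-fold limit, and each fell below it without 1 replicate (0.996 without set 1 of LPS+IFG, 0.926 without set 2 of IFG).

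Casp4 encodes the caspase of the non-canonical inflammasome. It was called with LPS+IFG and IFG at 2 and 4 h and with LPS+2MA and LPS at 4 h. Under 2-fold it passed the adjusted p at 1 h with LPS+IFG (0.78, adjusted p = 5.1e-05) and LPS+2MA (0.46, adjusted p = 0.0358). It also did at 2 h with LPS (0.62, adjusted p = 0.000853) and LPS+2MA (0.76, adjusted p = 4.46e-05). In LPS+2MA cells its ratios were 0.50, 0.33 and 0.54 at 1 h, 1.05, 0.71 and 0.51 at 2 h, and 1.71, 1.66 and 1.57 at 4 h. In LPS+IFG cells they were 0.80, 0.55 and 0.99 at 1 h, 1.70, 0.95 and 1.36 at 2 h, and 2.40, 1.85 and 2.01 at 4 h. LPS alone gave 0.14, -0.01 and 0.35 at 1 h, 0.88, 0.59 and 0.39 at 2 h, and 2.15, 1.58 and 1.37 at 4 h. The LPS+IFG replicates lay above those of LPS at 1 and 2 h (4.6% and 6.1% of features did) and overlapped them at 4 h.

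With IFG alone Casp4 had ratios of 0.55, 0.46 and 0.85 at 1 h, 1.22, 0.78 and 1.21 at 2 h, and 1.19, 1.03 and 1.56 at 4 h. Its 1 h mean of 0.62 ± 0.21 had an adjusted p of 0.00632 without reaching 2-fold, and it was the one fitted gene past that p with IFG at 1 h. Means at 4 h were 1.65 ± 0.07 with LPS+2MA, 2.09 ± 0.28 with LPS+IFG (4.3-fold, adjusted p = 1.43e-15), 1.70 ± 0.41 with LPS and 1.26 ± 0.27 with IFG. Nlrp3, the sensor that would stand beside these proteases, was not measured. The 2 Casp4 probes differed by up to 0.57, and the IFG mean at 2 h (1.07 ± 0.25) was 0.834 on the lower probe and 1.31 on the other.

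Combinations were compared with LPS alone to see what the second agent added, in 30 tests of 5 genes, 2 combinations and 3 times that share the LPS samples. Il1a was higher with LPS+2MA than with LPS at 1 h, by 1.98 (SE 0.41, adjusted p = 0.03), in a comparison that called 0.0690% of features. At 2 h the difference was 1.39 (SE 0.41, adjusted p = 0.397, 0.0259% of features called) and at 4 h 1.65 (SE 0.41, adjusted p = 0.0731, 0.112% of features). The differences of same-numbered sets were 2.47, 1.72 and 1.75 at 1 h, 1.40, 1.24 and 1.52 at 2 h, and 1.89, 1.34 and 1.71 at 4 h. All 9 were above 1, and the groups did not overlap at any of the 3 times. Replicates did not overlap, in that direction, for 3.5%, 2.9% and 5.4% of all features at those times.

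Same-numbered sets of LPS and the combinations deviated together, and with the set as a paired replicate block Il1a passed both criteria at each time. The adjusted p was then 0.00185 at 1 h, 0.0389 at 2 h and 0.00549 at 4 h (SE 0.30 each). These comparisons called 0.113%, 0.122% and 0.174% of features. Here and below, the fit with the set as a block treated the differences of both combinations as independent. They share the LPS replicates, so its p-values may be too small. Without the LPS+IFG set in which Il1a stood apart, whose spread enters the common error of the gene, it passed at 2 h (adjusted p = 0.00633) and 4 h (adjusted p = 0.000517) without a block too. The 1 h call was lost in the unpaired fit when any 1 of its 6 replicates was left out, with differences between 1.83 and 2.12 and adjusted p from 0.0591 to 0.352.

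Il1b differed less between LPS+2MA and LPS, by 0.91 at 1 h, 0.34 at 2 h and 0.50 at 4 h (SE 0.32 each). Its adjusted p ran from 0.999 to 1 and, with the set as a block, from 0.119 to 0.666. The size of the difference depended on the probe. At 4 h the lowest probe had means of 4.45 with LPS+2MA and 4.34 with LPS. The other 2 had 5.26 and 4.75, and 5.62 and 5.165. Whether an upper limit of the signal narrowed these differences was not tested. The Il1b difference was above 0 in all 9 sets, from 0.12 to 1.36. In set 3 at 4 h (1.04) the LPS+2MA value lacked the lowest probe, which the LPS value held. That set difference and the 4 h mean therefore compare unlike probes. For Il18 the LPS+2MA minus LPS difference was 0.56 at 2 h and 0.50 at 4 h, under 2-fold. Its adjusted p was 0.0186 and 0.0178 in the block fit, and 1 and 0.999 without it. With a random block of time and set its adjusted p was 0.208 at 2 h and 0.217 at 4 h. Casp1 and Casp4 differed by -0.05 to 0.30 at the 3 times, and none of these differences passed.

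Il18 was higher with LPS+IFG than with LPS at 2 h, by 1.34 (SE 0.31, adjusted p = 0.0101, 0.940% of features called), with set differences of 1.09, 1.43 and 1.52. The call fell away without set 3 of LPS (0.99, adjusted p = 0.154) or set 2 of LPS+IFG (1.03, adjusted p = 0.125). With the set as a block its adjusted p was 9.78e-08 (1.00% of features called, against 0.731% and 1.09% at 1 and 4 h). Casp1 at 0.80 (SE 0.19, adjusted p = 0.0118) and Casp4 at 0.72 (SE 0.19, adjusted p = 0.0296) were also higher at 2 h by adjusted p, without reaching 2-fold, a rule that 2.53% of features met. At 1 h none of the 5 was called (0.655% of features) and at 4 h none was (1.03%), where the Il18 difference was -0.30 and those of Casp1 and Casp4 were 0.36 and 0.39. With the set as a block, Il18 at 0.55 (adjusted p = 0.00649) and Casp4 at 0.62 (adjusted p = 0.00607) passed the adjusted p at 1 h, under 2-fold. With a random block of time and set the adjusted p was 0.23 for Il18 and 0.00869 for Casp4.

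For Il1a no difference between LPS+IFG and LPS passed with all replicates. It was 1.13 at 1 h (SE 0.41, adjusted p = 0.578), with sets at 0.97, 0.97 and 1.44, then -0.12 at 2 h and -0.86 at 4 h (adjusted p = 0.404). With the set as a block the adjusted p was 0.0778 at 1 h and 0.0957 at 4 h. At 4 h sets 1 and 2 stood at -0.98 and -2.09 while set 3 stood at 0.50. Without set 3 of LPS+IFG at 4 h, the 4 h difference was -1.83 (adjusted p = 3.02e-05) and the 1 h difference had an adjusted p of 0.00899. Il1b differed by -0.62 at 1 h, 0.12 at 2 h and -0.10 at 4 h, with adjusted p from 0.969 to 1.

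**Figure D3:**
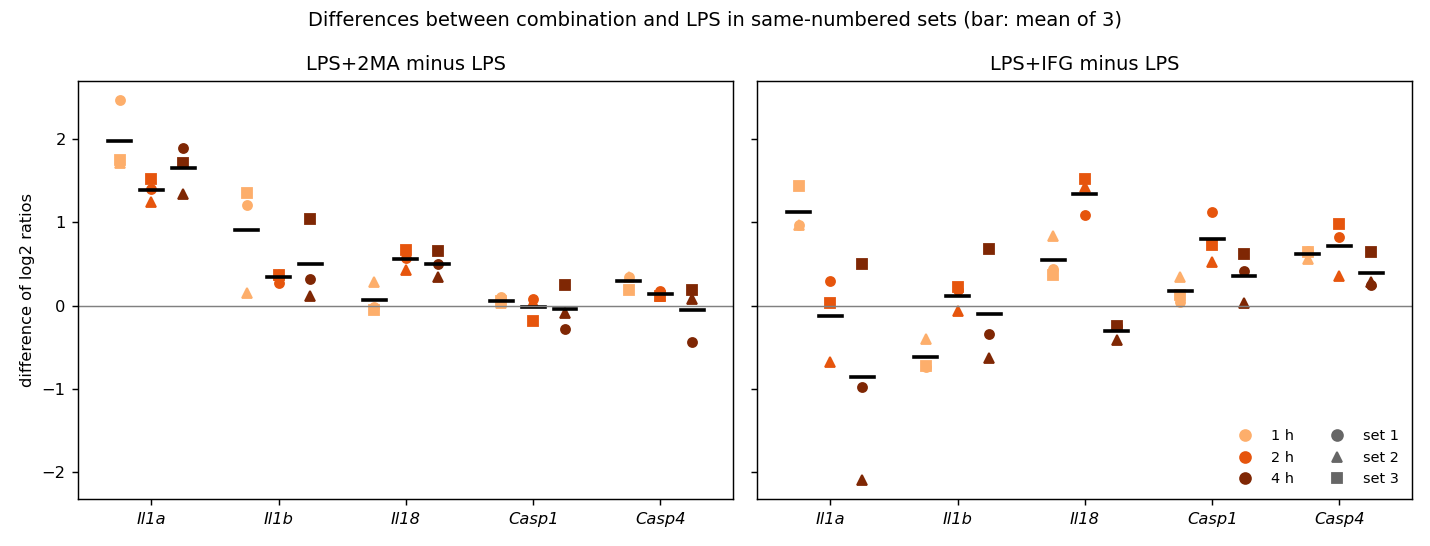
Difference of log2 ratios, LPS+2MA minus LPS (left) and LPS+IFG minus LPS (right), in each same-numbered set for the 5 genes at 1, 2 and 4 h, with a bar at the mean of 3 sets. Il1a lies above 1 in all 9 sets with LPS+2MA, and at 4 h of LPS+IFG its sets spread from -2.09 to 0.50.

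Against the other agent alone, the combinations had higher Il1a and Il1b in every comparison. Il1a was higher with LPS+2MA than with 2MA by 3.11, 4.49 and 4.96 at 1, 2 and 4 h, and higher with LPS+IFG than with IFG by 2.32, 3.01 and 2.66 (SE 0.41 each). For Il1b these differences were 3.03, 3.81 and 4.26 with 2MA and 2.33, 4.71 and 4.46 with IFG (SE 0.32 each). All 12 were called, the least of them at an adjusted p of 0.000256. The shares of features called were 0.819%, 1.74% and 4.97% for LPS+2MA minus 2MA and 1.12%, 2.15% and 2.60% for LPS+IFG minus IFG.

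Il18, Casp1 and Casp4 were called in LPS+2MA minus 2MA at 4 h, by 2.81 (SE 0.31), 1.67 (SE 0.19) and 1.39 (SE 0.19), and in no other of these comparisons. In LPS+IFG minus IFG at 4 h the differences were 0.88 for Il18 (adjusted p = 0.0713, and 1.13 with 0.0293 without set 3 of LPS+IFG), 0.40 for Casp1 (adjusted p = 0.215) and 0.83 for Casp4 (adjusted p = 0.00233, under 2-fold).

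Whether a combination differed from the sum of its agents on the log2 scale was tested last. At 4 h LPS+IFG stayed below the sum of the LPS and IFG ratios by 1.38 for Casp1 (-1.38, SE 0.23, adjusted p = 0.000154) and by 1.78 for Il18 (-1.78, SE 0.39, adjusted p = 0.00393), in a comparison that called 1.38% of features, 1.15% lower. Casp4 stood at -0.87 (SE 0.23, adjusted p = 0.03), under 2-fold. Il1a stood at -0.74 (SE 0.50, adjusted p = 0.858), and at -1.71 (adjusted p = 0.00108) without set 3 of LPS+IFG. For Casp1 the 4 h means of 2.14 with LPS+IFG, 1.78 with LPS and 1.74 with IFG are the values behind this difference. At 1 and 2 h of LPS+IFG no fitted gene was called (0.0862% and 0.302% of features). LPS+2MA called none at any time (0.00862%, 0.00862% and 0.0517% of features), with Il1a at 1.83, 1.29 and 1.56 (SE 0.50 each) above the sum. With the set as a block Il1a passed there at 1 h (adjusted p = 0.00324, 0.0880% of features called) and at 4 h (adjusted p = 0.011, 0.106%). Without set 3 of LPS+IFG at 4 h Il1a passed there too without a block. Its adjusted p was then 0.00505 at 1 h and 0.0207 at 4 h. With all replicates and a random block of time and set, Il1a passed this comparison of LPS+2MA with the sum at no time.

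The ratios at 4 h were then compared with those at 2 h and 1 h of the same treatment. In LPS+2MA cells the 4 h ratio of Il18 exceeded that at 2 h by 2.44 (SE 0.31) and that of Casp1 by 1.49 (SE 0.19), where 2.41% of features were called. In LPS cells Il18 rose by 2.50, Casp1 by 1.51 and Casp4 by 1.08 between these times (1.75% of features), and in LPS+IFG cells Casp1 by 1.07 (1.37%). None was called between these times with IFG (0.405% of features) or 2MA, where 0% of features were. The call of Casp4 with LPS fell under 2-fold without set 3 at 2 h (0.966) or set 1 at 4 h (0.856), and that of Casp1 with LPS+IFG without set 3 at 2 h (0.991) or set 1 at 4 h (0.913). Il1a and Il1b changed by 0.46 and 0.33 with LPS+2MA, by -0.54 and -0.04 in LPS+IFG cells, and by 0.20 and 0.17 in LPS cells (SE 0.41 and 0.32), and none of these passed. Without the set in which Il1a stood apart, its difference with LPS+IFG was -1.51 (adjusted p = 0.000323). Il18 with LPS+IFG differed by 0.85 (adjusted p = 0.106), and by 1.11 (adjusted p = 0.0417) without set 3 at 4 h or 1.17 (adjusted p = 0.031) without set 2 at 2 h.

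Between 1 and 4 h all 5 genes rose with LPS+2MA (5.13% of features called) and all 5 with LPS (3.68%), and 4 of 5 with LPS+IFG (4.77%), the exception being Il1a at 0.13 (SE 0.41). The largest of these rises was that of Il18 with LPS+2MA, 3.17 (SE 0.31, adjusted p = 5.03e-10). With IFG, Il18 rose by 1.19 and Casp1 by 1.38 (1.25% of features). The Il18 rise lost its call without set 3 at 1 h (1.03, adjusted p = 0.117) or set 2 at 4 h (1.00, adjusted p = 0.132). No fitted gene was called with 2MA (0.147% of features). When the arrays were also scaled to a common spread, 7 of the 16 calls between 1 and 4 h were lost: all 5 of Il1a and Il1b, for example Il1b with LPS+2MA at 0.06 (adjusted p = 0.984) in place of 1.44, and those of Casp4 with LPS+2MA (0.836) and LPS+IFG (0.790).

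The 5 genes' condition means grouped in the same way. Over the 15 conditions Il1a and Il1b had a Pearson r of 0.939, and Il18, Casp1 and Casp4 had 0.931 to 0.954 among themselves, while pairs across the groups had 0.261 to 0.471. These correlations are descriptions: the conditions share LPS or IFG, and genes on an array share its RNA. Among 980 named genes called in at least 1 condition, those most like Il1a were Ifnb1 (0.961), St3gal1 and Cd22 (0.949 each), and those most like Il1b were Stk40 (0.970), Odc1 (0.967) and Marcksl1 (0.966). Il18 was most like Sp100, Herc6 and Uba7 (0.983 each), Casp1 most like Cfb (0.988), Il18bp (0.981) and Nmi (0.979), and Casp4 most like Ifi204 (0.985), Pnp (0.979) and Mlkl (0.976).

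Of 8 receptors and decoys of the family, 7 were measured and 3 were called in at least 1 condition, as were 9.78% of all features. Il18bp, the secreted binding protein that neutralizes interleukin-18, was called higher with LPS+2MA at 4 h (2.28 ± 0.025), with LPS+IFG at 2 h (1.71 ± 0.48) and 4 h (3.02 ± 0.13), with LPS at 4 h (1.92 ± 0.54), and with IFG at 2 h (1.13 ± 0.20) and 4 h (2.54 ± 0.08). LPS+IFG exceeded LPS for it by 1.29 at 2 h (SE 0.18, adjusted p = 5.5e-06) and 1.10 at 4 h (SE 0.18, adjusted p = 7.31e-05). Il18bp therefore shared with Il18 the calls at 4 h of all 4 of these treatments.

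Il18rap, the accessory chain of the interleukin-18 receptor, was called with LPS+IFG at 1 h (1.23 ± 0.545) and 2 h (1.61 ± 0.25) and with IFG at 2 h (1.50 ± 0.28) and 4 h (1.11 ± 0.42). LPS+IFG exceeded LPS for it by 1.05 at 1 h and 1.02 at 2 h (SE 0.21 each). Il1rap, the accessory chain of the interleukin-1 receptor, was called at 4 h with LPS+2MA (1.99 ± 0.38) and LPS (1.34 ± 0.48). Il1r1, Il1r2, Il18r1 and Sigirr passed in no condition, and the median of the 7 genes at 4 h lay between 0.01 and 0.13 over the 5 treatments.

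In the signalling list 10 of 14 genes were measured, and 2 were called in at least 1 condition, a share of 20% beside the 9.78% of all features. Peli1, a ubiquitin ligase that acts in interleukin-1 and Toll-like receptor signalling, was higher in all 9 LPS conditions: its means were 1.79, 2.69 and 2.79 with LPS+2MA at 1, 2 and 4 h, 1.48, 2.31 and 2.08 with LPS+IFG, and 1.76, 2.52 and 2.52 when LPS was given alone. Myd88, the shared adaptor of these receptors, was higher at 4 h with LPS+2MA (1.32 ± 0.06), LPS+IFG (1.45 ± 0.21) and LPS (1.27 ± 0.20), and at 2 h with LPS+IFG (1.16 ± 0.14). The list's median at 4 h lay between -0.10 and 0.04.

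Of 28 inflammasome sensors, adaptors and partners 12 were measured and 5 were called in at least 1 condition, as were 9.78% of all features. The adaptor gene Pycard and most sensors were not among the genes measured, so these ratios do not show whether the cells could form an inflammasome. Txnip, a thioredoxin-binding protein described as an NLRP3 partner, was the one gene called lower. It stood at -2.43 ± 0.02 and -1.69 ± 0.615 with LPS+2MA at 1 and 2 h, at -2.25 ± 0.20 and -1.58 ± 0.23 in LPS+IFG cells, and at -1.93 ± 0.32 and -1.46 ± 0.68 in LPS cells. Mefv, encoding the sensor pyrin, was called with LPS+IFG at 1 h (1.39 ± 0.12). At 4 h the serpin gene Serpinb9 was called with LPS+2MA (1.39 ± 0.475) and LPS+IFG (1.72 ± 0.32), and Casp8 with LPS+2MA (1.06 ± 0.19).

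Serpinb1a was called with IFG at 2 h (1.50 ± 0.84) and 4 h (1.25 ± 0.56) from 2 replicates each. The list of other family members held 10 symbols, some of them old and new names of the same gene, and 2 symbols were measured. Of these, Il1f6, an interleukin-36 ligand, was called with LPS+IFG at 4 h (1.03 ± 0.36). No fitted gene of either list was called with 2MA alone.

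**Figure D4:**
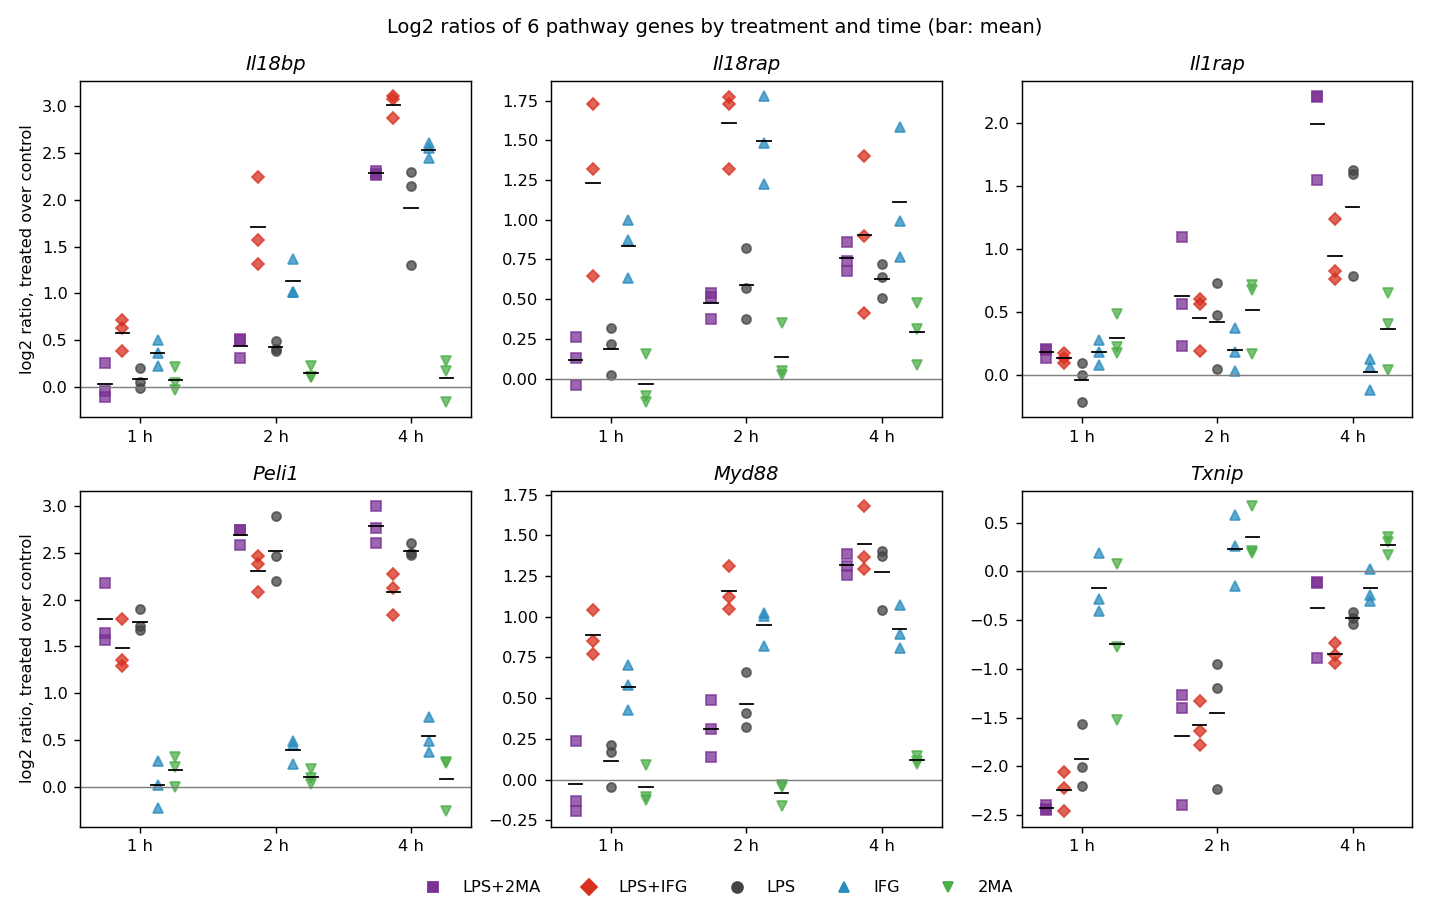
Log2 ratio of treated over control RNA in each replicate of Il18bp, Il18rap, Il1rap, Peli1, Myd88 and Txnip at 1, 2 and 4 h, with a bar at the mean and a vertical axis set for each gene. Il18bp reaches its highest mean with LPS+IFG at 4 h (3.02), Peli1 lies above 1 in all LPS conditions, and Txnip lies lowest at 1 h with LPS+2MA (-2.43).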

How the data were processed

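The deposited table holds log2 ratios of the 2 channels for 16281 probes on 90 arrays. The sources used here do not give how the authors extracted, background-corrected and normalized the signals; in the table as deposited each array's median is 0 and no log2 value exceeds 6.64 in size. Values of exactly 0 (7.84 to 17.0% per array) were treated as missing. Probes were named from the platform annotation (13738 with 1 gene symbol, 52 with several, which were not used by name, and the rest unnamed). No reads or counts underlie these values, so the number of arrays limits their precision.

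The sign was turned on arrays whose treated RNA carried Cy3, since 37 of 45 dye pairs correlated below 0 before turning (-0.784 to 0.396). Pairs above 0 were 2MA at 1 h (0.239 and 0.003), 2 h (0.236 and 0.183) and 4 h (0.396). The others were IFG at 1 h (0.112 and 0.22) and LPS at 1 h (0.076). In these pairs what both orientations shared outweighed what turned with the dye, a limit for the small 2MA ratios. The 2 arrays of a set were averaged into 1 replicate, both being required, and probes of a gene were averaged. Features with values in at least 2 of 3 replicates of all 15 conditions were fitted (11600, of which 9760 had a gene name). One limma model with a mean for each condition (limma 3.58.1, statmod 1.5.0, R 4.3.3; prior SD 0.185) gave each contrast, with Benjamini-Hochberg adjustment over all features of that contrast. A ratio against control was tested against 0. No 2 replicates of a condition were near duplicates (the smallest SD of their difference over features was 0.212). The fit recovered known changes in simulated data before use. Those changes were larger than 2-fold, and the simulated noise was independent and of equal size for all features. The simulation therefore does not bear on calls near 2-fold or on sets that deviate together. Promoters were RefSeq windows of GRCm38.p6. Python 3.11.15, pandas 2.3.3, numpy 2.4.6 and matplotlib 3.10.9 were used.

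Whether set numbers pair the samples was checked by the correlation of same-numbered deviations from condition means. Combinations and LPS deviated together in 18 of 18 pairs (lowest r 0.119) and 4 h and 2 h in 15 of 15 (lowest 0.132), so a replicate block of set was used beside the unpaired fit. For 4 h and 1 h only 7 of 15 pairs exceeded 0.1.

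The genes, the lists and the rule for likeness (the 3 named genes, called in at least 1 condition, with the highest Pearson r over the 15 condition means) were chosen with earlier results of these data known. Of the lists, genes called in a condition were named. Alternatives were single dye orientations, a dye term, a common spread for all arrays, zeros kept as values, single probes, other filters, the conditions compared alone, replicate blocks and leaving out each replicate in turn. The test without a filter across conditions, the block for 4 h less 2 h and the omission of 1 Il1b probe were added after the data were seen.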

Additional observations from a re-analysis of the deposited data

Results flagged for a closer look

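The following ratios differed between times of one treatment, by limma's test of the difference itself. From 1 to 4 h of LPS+2MA the log2 ratio changed by 1.78 in Il1a, 1.44 in Il1b, 3.17 in Il18, 1.66 in Casp1 and 1.19 in Casp4. From 1 to 4 h of LPS+IFG it changed by 2.37 in Il1b, 1.90 in Il18, 1.94 in Casp1 and 1.31 in Casp4. From 1 to 4 h of LPS it changed by 2.12 in Il1a, 1.85 in Il1b, 2.74 in Il18, 1.76 in Casp1 and 1.54 in Casp4. From 1 to 4 h of IFG it changed by 1.19 in Il18 and 1.38 in Casp1. From 2 to 4 h the changes were 2.44 in Il18 and 1.49 in Casp1 with LPS+2MA, 1.07 in Casp1 with LPS+IFG, and 2.50 in Il18, 1.51 in Casp1 and 1.08 in Casp4 with LPS.

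At 4 h the LPS+IFG ratio differed from the sum of the LPS and IFG ratios by -1.78 in Il18 and -1.38 in Casp1. Outlying samples were not tested for in groups of 3; the departure of set 3 in Il1a at 4 h of LPS+IFG is a description. The part of array spread in these changes was not tested beyond the scaling described.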

How the results depend on the processing

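Of 12585 values of the 5 genes under alternatives, 12489 stayed called or uncalled as before, 47 lost a call and 49 gained one. Where a value was called in either fit, 0 changed sign. The signs of values uncalled in both fits were not compared. Of 30 combination against LPS comparisons, 2 were called. That count was 1 with treated RNA in Cy3 only, with arrays scaled to a common spread and with the probe farthest from its gene's mean. It was 4 with a random or a fixed replicate block, 4 without a fold minimum and 5 with all arrays and a dye term, and it ran from 1 to 6 when 1 replicate was left out. Of 30 comparisons with the sum of the agents, 2 were called, 4 with the fixed replicate block, and 2 to 5 when 1 replicate was left out. In both families the highest count came without set 3 of LPS+IFG at 4 h. Of 25 differences between 4 h and 1 h, 16 were called, and 9 with arrays scaled to a common spread. Counts against control (37 of 75) ran from 35 to 44 over all alternatives, counts against the other agent (15 of 30) from 15 to 16 and those of 4 h less 2 h (6 of 25) from 4 to 8. The paired fit changed no other call than those given for Il1a. Il1rn could be tested only without the filter across conditions. The causes of these changes were not tested. Array number, 3 replicates a condition, limits what could be detected.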
